A study of Mus musculus with 4 samples.

Results

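The replication-independent histone variants described here are 10 of the 24391 genes in the count table, chosen by symbol: H2afx, H2afz, H2afv, H2afj, H2afy and H2afy2 of the H2A family, H3f3a and H3f3b of the H3 family, and the linker histones H1f0 and H1fx. All 10 had a row, and 8 had reads. Expression was measured by RNA-Seq in Beko cells, a mouse progenitor T-cell line in which Notch signaling is constitutively active. Cells of the GSI condition (2 libraries) were kept for 48 h in DAPT, a γ-secretase inhibitor (GSI) that prevents the release of the Notch intracellular domain. Cells of the washout condition (2 libraries) had the same 48 h of inhibitor and were then washed and cultured for another 24 h without it. The labels give the dose as 10 mg/ml and the study's methods as 10 μg/ml, and fresh inhibitor was added once during the treatment. Cells that were never treated, or that were washed and put back into inhibitor, were not analysed here, so the return of Notch activity, the wash itself and the longer culture cannot be told apart. All libraries come from this 1 cell line and the labels do not say whether replicates are separate cultures, so p-values measure the spread between these libraries, which may be technical.

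Histones package DNA into nucleosomes. Most histone mRNA comes from clustered replication-dependent genes that are switched on in S phase and end in a stem-loop instead of a poly(A) tail, and this mRNA disappears when DNA synthesis stops. Replication-independent variants are encoded by scattered genes, are mostly made as polyadenylated mRNA throughout the cell cycle and are put into chromatin by dedicated chaperones, also where no DNA is being copied: H3.3 and H2A.Z are found at active promoters and enhancers, H2A.X is the variant that is phosphorylated beside DNA breaks, macroH2A is a large variant of silent chromatin, and H1.0 is a linker histone that is known to accumulate in non-dividing and differentiated cells. The libraries were made from total RNA after removal of ribosomal RNA, so mRNA with and without a poly(A) tail was captured alike. In bulk RNA, a change in the fraction of cells that express a gene and a change in RNA per cell cannot be told apart.

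H2afz encodes H2A.Z.1, and H2afv encodes the near-identical protein H2A.Z.2 from another chromosome. The promoters of these genes, of H2afj (H2A.J) and of H1f0 (H1.0) are shown because these genes, 3 of which passed the test and 1 of which narrowly missed it, moved in different directions upon washout. Each sequence holds the 250 bases before the annotated start, read 5′ to 3′ on the strand of the gene, from RefSeq on GRCm38.p6. Capitals mark the letters CCAAT or their reverse complement ATTGG. Of the 10 variants, 9 had an entry and were searched, and H2afx was not among them. The coordinates on GRCm38.p6 are chr3:137864237-137864486 (plus strand) for H2afz, chr11:6444444-6444693 (minus strand) for H2afv, chr6:136807998-136808247 (plus strand) for H2afj and chr15:79027962-79028211 (plus strand) for H1f0.
H2afz promoter: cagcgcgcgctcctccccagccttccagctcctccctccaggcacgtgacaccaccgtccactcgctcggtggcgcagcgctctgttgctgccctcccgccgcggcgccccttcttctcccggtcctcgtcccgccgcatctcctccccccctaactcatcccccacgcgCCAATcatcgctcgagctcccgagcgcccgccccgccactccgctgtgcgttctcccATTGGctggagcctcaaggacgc
H2afv promoter: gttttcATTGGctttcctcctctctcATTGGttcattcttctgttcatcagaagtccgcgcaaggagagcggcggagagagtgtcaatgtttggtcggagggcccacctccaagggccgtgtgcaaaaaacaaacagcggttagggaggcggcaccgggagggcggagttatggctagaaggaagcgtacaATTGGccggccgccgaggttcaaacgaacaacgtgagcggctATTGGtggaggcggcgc
H2afj promoter: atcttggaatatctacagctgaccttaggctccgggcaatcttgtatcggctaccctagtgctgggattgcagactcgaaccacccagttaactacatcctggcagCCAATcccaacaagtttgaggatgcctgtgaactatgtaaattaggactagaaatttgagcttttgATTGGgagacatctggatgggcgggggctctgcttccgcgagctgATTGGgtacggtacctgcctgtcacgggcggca
H1f0 promoter: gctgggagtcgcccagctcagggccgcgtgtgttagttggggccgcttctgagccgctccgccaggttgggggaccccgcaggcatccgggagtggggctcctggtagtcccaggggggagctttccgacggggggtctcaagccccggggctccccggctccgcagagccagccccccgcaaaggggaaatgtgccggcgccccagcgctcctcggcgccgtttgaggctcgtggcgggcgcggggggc
The CCAAT letters occurred 2 times before H2afz, at 80 and 23 bases from the start, 4 times before H2afv, at 244, 224, 59 and 17 bases, and 3 times before H2afj, at 144, 78 and 33 bases. H3f3a had 1 match and H3f3b had 4, whereas H1f0, H1fx, H2afy and H2afy2 had none. CCAAT is the letter core bound by the NF-Y factor. Among all 32851 promoters of the same length, 33.8% held it on either strand at least 1 time, 10.1% at least 2 times, 2.79% at least 3 times and 0.84% at least 4 times. The letters were present before genes that rose upon washout (H2afz and H2afj) and before genes that did not pass the test (H2afv, H3f3a and H3f3b). The RBPJ core TGGGAA, read by the DNA-binding factor of the Notch pathway, was in 21.6% of all promoters and in 0 of the 9 searched. The study found Notch-dependent RBPJ binding mostly away from starts, and reports there the looser core TGRGAA (R is A or G). Distant sites and the looser core were not searched, so the 0 of 9 covers only the exact letters in these 250 bases. The E2F letters TTTGGCGC and TTTCGCGC were in 0.417% and 0.256% of all promoters and in 0 of the 9, and the E-box CACGTG, in 6.02% of all, was found only before H2afz. TATAAA, in 12.4% of all promoters, was found only before H3f3b, and GGGCGG, in 32.7% of all, was found before 6 of the 9. All motifs were searched on both strands, ATTGG and TGGGAA can share letters, and a match describes letters only.

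Upon washout, transcripts of H2afz, H2afx and H2afj rose and those of H1f0 fell, while H2afv, H2afy, H3f3a and H3f3b did not pass the test. Levels of 1 gene across libraries are given as CPM, which are read counts relative to the library total, scaled by the trimmed mean of M-values (TMM). The quasi-likelihood test of edgeR was applied to the 2 conditions over the 12266 genes that passed a filter on low counts, with Benjamini-Hochberg adjustment over all of them. A gene was said to rise or fall at an adjusted p-value under 0.05, and the study's second threshold, a log2 fold change above 1 or below -1, is given where it was met. Of the 8 variants tested, 3 rose and 1 fell, 4 of 8 in all, against a background in which 52.5% of all tested genes moved (27% rose and 25.4% fell). Past both thresholds were H2afz, higher (7.74% of all genes), and H1f0, lower (11.7% of all genes), 2 of 8 beside 19.5% of all genes in either direction. The median log2 fold change was 0.17 over the 8 variants and -0.01 over all genes tested. The 2 libraries of a condition did not overlap those of the other for 6 of the 8, which was so for 77.3% of all genes tested. The share of variants that moved was therefore close to that of all genes, and the variants that moved did so in both directions.

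**Figure D1:**
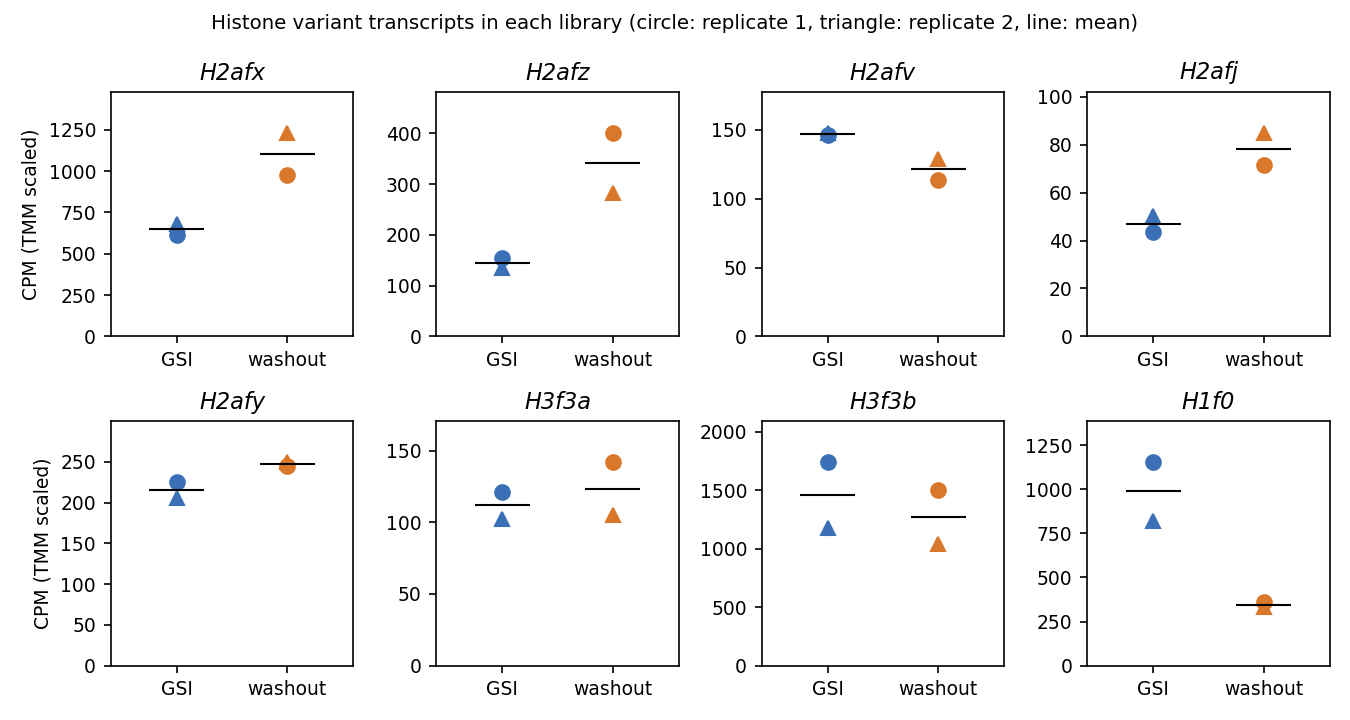
CPM (TMM scaled, linear axes from 0) of the 8 histone variants with reads, in the GSI libraries (blue) and the washout libraries (orange). Circles are replicate 1, triangles replicate 2 and lines the mean of the 2 libraries. The washout libraries lie above both GSI libraries for H2afx, H2afz, H2afj and H2afy, below them for H2afv and H1f0, and overlap them for H3f3a and H3f3b.

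The libraries hold 13716199 to 36364200 counts, and replicate 1 was the deeper library in both conditions. The 3-count limit of detection lay between 0.0825 and 0.219 CPM. Replicates correlated at 0.990 (GSI) and 0.988 (washout) on log2 CPM across genes, which are not independent, and the biological coefficient of variation was 0.121. All 7 Notch target genes examined rose past both thresholds, with log2 fold changes from 1.14 to 3.47 (Hes1 1.42, adjusted p = 0.0282, and Dtx1 3.20, adjusted p = 0.000396, edgeR). All 12 markers of T-cell progenitors passed the filter, with summed levels of 5893 and 6369 CPM in GSI and 6096 and 5940 CPM in washout. The largest part of each sum was Rag1 (1763 and 2367 CPM in GSI, 2765 and 2554 CPM in washout), named after its values were seen. The sum therefore does not describe the single markers. Of the 12 markers, 3 rose and 4 fell, from Gata3 (log2 fold change -1.67) to Ptcra (2.37). Of 13 markers of B, myeloid, erythroid, stromal and epithelial cells, 6 were at 0 in every library and 3 passed the filter. The summed level of the 13 was 51.1 and 40.8 CPM in GSI and 6.20 and 5.80 CPM in washout, nearly all of it the integrin gene Itgam, which fell from 48.7 and 37.9 CPM to 5.37 and 4.76 CPM and was named after its values were seen. This decline moved with the condition, and its part in the changes of the histone variants was not tested. The median log2 fold change also declined with exonic GC content, from 0.12 in the lowest to -0.21 in the highest of 4 equal bins of genes.

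H2afz, at chr3:137527451-137529886 on the plus strand (mm9, 5 exons, 1776 exonic bases), encodes H2A.Z.1, a protein without which early mouse embryos do not develop. Its level was 154.9 and 134.6 CPM in GSI replicates 1 and 2, and 401.3 and 281.6 CPM in washout replicates 1 and 2. Both washout libraries were above both GSI libraries, with the highest level in washout replicate 1. The mean rose from 145 ± 14.4 CPM to 342 ± 84.7 CPM (SD, n = 2 libraries each), a log2 fold change of 1.24 ± 0.183 (SE) and 2.36-fold (edgeR, adjusted p = 0.00239). The 95% interval of the log2 fold change ran from 0.80 to 1.68. Without washout replicate 1 the log2 fold change was 0.96, under the fold threshold, with an adjusted p of 0.000347.

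H2afv, at chr11:6327229-6344446 on the minus strand (1639 exonic bases), encodes H2A.Z.2. Its level was 146.2 and 147.9 CPM in GSI and 113.8 and 129 CPM in washout. Both washout libraries were below both GSI libraries, but the difference did not pass the test (log2 fold change -0.28 ± 0.101, 95% interval -0.52 to -0.03, adjusted p = 0.0579, edgeR). The call depended on the processing: H2afv was past 0.05 in 6 of 13 alternatives. Without washout replicate 2 it fell with a log2 fold change of -0.35 (adjusted p = 0.0392), whereas without washout replicate 1 it was at -0.18 (adjusted p = 0.257). Scaling by the total count gave -0.48 (adjusted p = 0.00848), and a correction for GC content and length gave -0.49 (adjusted p = 0.00573).

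The make-up of the H2A.Z reads differed between the libraries of the 2 conditions. H2afz supplied 51.5% of the reads of the H2afz and H2afv genes in GSI replicate 1 (95% Wilson interval 50.5 to 52.4%) and 47.6% in GSI replicate 2 (46.1 to 49.2%). In washout it supplied 77.9% (77.3 to 78.5%) and 68.6% (67.4 to 69.8%). The intervals cover counting error only and do not overlap between conditions, but neither do they overlap between the replicates of a condition. The mean share rose by 23.7 points, from 49.5% to 73.3%. An exact two-sided permutation test over the 4 libraries gave p = 0.333, the smallest value that 2 against 2 libraries allow. Leaving out each library in turn kept the difference between 19.0 and 28.4 points.

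The coding sequences of these genes differ enough for reads to be assigned. Their 387 coding bases were the same at 306 positions (79.1%), with a longest shared run of 14 bases. The first 60 coding bases, from the transcripts of GENCODE vM1 (mm9), are given 5′ to 3′ with the 13 bases that differ in capitals, to show how closely spaced the differences are.
H2afz coding start: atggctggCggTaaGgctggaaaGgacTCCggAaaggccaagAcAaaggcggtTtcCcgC
H2afv coding start: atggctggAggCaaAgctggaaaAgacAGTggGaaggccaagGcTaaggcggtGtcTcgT
Processed pseudogenes of such genes can still share reads with them, so part of these counts is uncertain. The study's methods give 1 alignment per read. However, the gene copies Hist1h2bq and Hist1h2br had equal counts in every library (33509 and 19783 in GSI, 61217 and 34265 in washout). How reads shared between copies were counted is therefore not clear.

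H2afx, at chr9:44142798-44144154 on the plus strand (a single exon of 1357 bases), encodes H2A.X, whose mRNA is known to be made both with a stem-loop and with a poly(A) tail. Its level was 614.2 and 679.5 CPM in GSI and 974.4 and 1232 CPM in washout. Both washout libraries exceeded both GSI libraries. The mean rose 1.71-fold, with a log2 fold change of 0.77 ± 0.154 (95% interval 0.40 to 1.14, adjusted p = 0.00737, edgeR). Without GSI replicate 1 the log2 fold change was 0.69 and the call was lost (adjusted p = 0.0563). Scaled to exon length, H2afx was the most abundant H2A variant, with 453 and 501 CPM per kilobase in GSI and 718 and 908 in washout, in the top percentile of all genes tested that have an annotated length.

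H2afj, at chr6:136756769-136758595 on the plus strand (a single exon of 1827 bases), encodes H2A.J, a variant that differs from canonical H2A mainly at its C-terminal end. Its level was 43.7 and 50.4 CPM in GSI and 71.5 and 85.0 CPM in washout, again without overlap. It rose 1.67-fold, with a log2 fold change of 0.74 ± 0.128 (95% interval 0.43 to 1.05, adjusted p = 0.00439, edgeR). The log2 fold change stayed between 0.63 and 0.86 when each library was left out in turn.

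H2afy, at chr13:56174980-56237722 on the minus strand, encodes macroH2A1. Its level was 225.6 and 205.1 CPM in GSI and 244.5 and 249.8 CPM in washout. The washout libraries were slightly above the GSI libraries, but the difference did not pass the test (log2 fold change 0.20 ± 0.0996, 95% interval -0.04 to 0.44, adjusted p = 0.141, edgeR). Scaling by the total count brought it to -0.002, whereas the correction for GC content and length gave 0.33 and a call (adjusted p = 0.0214). H2afy2, which encodes macroH2A2, was listed at 0 in every library. The counted macroH2A reads (7222 and 2993 in GSI, 8327 and 3358 in washout) were thus those of H2afy. For the reason given below with H1fx, only the entry of 0 is reported for H2afy2, and no make-up of macroH2A mRNA is inferred.

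**Figure D2:**
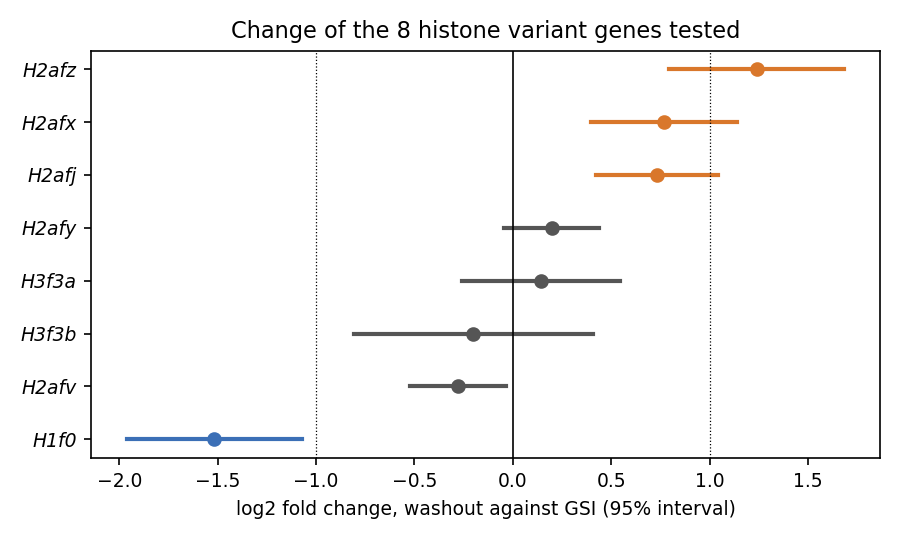
Change upon washout on the log2 scale, with its 95% interval, for the 8 histone variants tested (edgeR, 2 libraries per condition). Orange marks genes that rose, blue the gene that fell and grey those that did not pass an adjusted p of 0.05. Dotted lines mark log2 fold changes of -1 and 1. H2afz (1.24) and H1f0 (-1.52) are the only points beyond them.

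Per kilobase of exon, the 5 H2A variants with reads kept the same leading gene in all libraries. H2afx took 66.0% and 69.1% of their summed level in GSI and 66.0% and 73.9% in washout, with overlap (exact permutation p = 1). The share of H2afz was 12.7% and 10.5% in GSI and 20.8% and 12.9% in washout, so that washout replicate 2 lay just above GSI replicate 1. The share of H2afv was 13.0% and 12.5% in GSI and 6.38% and 6.41% in washout, and that of H2afy 4.83% and 4.16% against 3.3% and 2.99%. For these 3 genes the conditions did not overlap, and the exact permutation test could give no less than 0.333. H2afj held 3.48% to 3.81% in all 4 libraries. H2afz and H2afv thus had a similar level per length in GSI (87.2 and 75.8 CPM per kilobase for H2afz, 89.2 and 90.3 for H2afv). In washout the levels were far apart (226 and 159 CPM per kilobase for H2afz, 69.4 and 78.7 for H2afv).

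H3f3a and H3f3b encode the same H3.3 protein. The genes share 316 of 411 coding bases (76.9%), with a longest shared run of 23 bases, and their first 60 coding bases, again with the 13 differences in capitals, show that 1 protein is written with 2 sets of codons.
H3f3a coding start: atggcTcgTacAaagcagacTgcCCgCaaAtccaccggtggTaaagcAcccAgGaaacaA
H3f3b coding start: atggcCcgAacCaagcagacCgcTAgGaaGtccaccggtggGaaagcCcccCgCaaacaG
H3f3b, at chr11:115883226-115889276 on the minus strand (2976 exonic bases), was measured at 1743 and 1178 CPM in the GSI libraries and at 1505 and 1037 CPM after washout. The conditions overlapped, and in both of them replicate 1 was above replicate 2, by 0.57 (GSI) and 0.54 (washout) on the log2 scale. The log2 fold change was -0.20 ± 0.251 (95% interval -0.81 to 0.41, adjusted p = 0.535, edgeR), and it changed sign to 0.10 without GSI replicate 1 and to 0.06 without washout replicate 2. H3f3a, at chr1:182730963-182744074 on the minus strand (3504 exonic bases), was measured at 121.2 and 102.6 CPM in the GSI libraries and at 142 and 104.7 CPM after washout, also with overlap and with replicate 1 above replicate 2. Its log2 fold change was 0.14 ± 0.165 (95% interval -0.26 to 0.54, adjusted p = 0.5, edgeR). It was -0.09 without washout replicate 1, -0.06 with scaling by the total count and -0.03 with the correction for GC content and length. For both genes, changes within these intervals are not excluded.

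H3f3b supplied most of the counted H3.3 reads in every library. The share of H3f3a in the reads of the pair was 6.50% (95% Wilson interval 6.31 to 6.70%) and 8.01% (7.63 to 8.41%) in GSI, and 8.62% (8.39 to 8.86%) and 9.17% (8.72 to 9.64%) in washout. The conditions did not overlap, but the intervals of GSI replicate 2 and washout replicate 1 did, and the GSI replicates differed by about as much as the means, which were 1.64 points apart (exact permutation p = 0.333). Per kilobase, the H3f3b level was 586 and 396 CPM in GSI against 506 and 349 CPM in washout, and the H3f3a level was 34.6 and 29.3 CPM against 40.5 and 29.9 CPM.

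H1f0 encodes the linker histone H1.0. Its level was 1154 and 820.2 CPM in GSI and 360.2 and 329.9 CPM in washout. Both GSI libraries were above both washout libraries, and the spread within GSI was the wider one. The mean fell 2.86-fold, from 987 ± 236 CPM to 345 ± 21.4 CPM (SD, n = 2 libraries each), a log2 fold change of -1.52 ± 0.183 (95% interval -1.96 to -1.07, adjusted p = 0.00119, edgeR). This was the only variant to fall, and its log2 fold change lay between -1.73 and -1.25 in all 13 alternatives. GENCODE vM1 lists the symbol on mm9 at chr15:78859152-78859689 (plus strand) as a pseudogene of 534 exonic bases, so no level per length is given for it. H1fx, which encodes the other linker histone of the set, was listed at 0 in every library. A count of 0 allows up to 0.0825 to 0.219 CPM in these libraries, but Hmgcs1, a sterol synthesis gene that dividing cells use, was also listed at 0 throughout, so that for H2afy2 and H1fx only the entry of 0 is reported.

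H1f0 went against the replication-dependent linker histones. The 5 genes Hist1h1a to Hist1h1e had log2 fold changes of 0.998, 0.95, 0.21, 0.57 and 0.37, of which Hist1h1a and Hist1h1b rose (adjusted p = 0.00738 and 0.00995, edgeR) and the other 3 did not pass the test (adjusted p = 0.358, 0.0584 and 0.162). The share of H1f0 in the reads of these 6 genes was 14.8% (95% Wilson interval 14.6 to 14.9%) and 9.35% (9.19 to 9.51%) in GSI, and 3.70% (3.64 to 3.76%) and 2.50% (2.43 to 2.58%) in washout. The mean share dropped by 8.95 points, from 12.1% to 3.10%, without overlap between conditions (exact permutation p = 0.333, the smallest possible). The H1 genes of the clusters summed to 6664 and 7956 CPM in GSI and 9377 and 12860 CPM in washout.

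**Figure D3:**
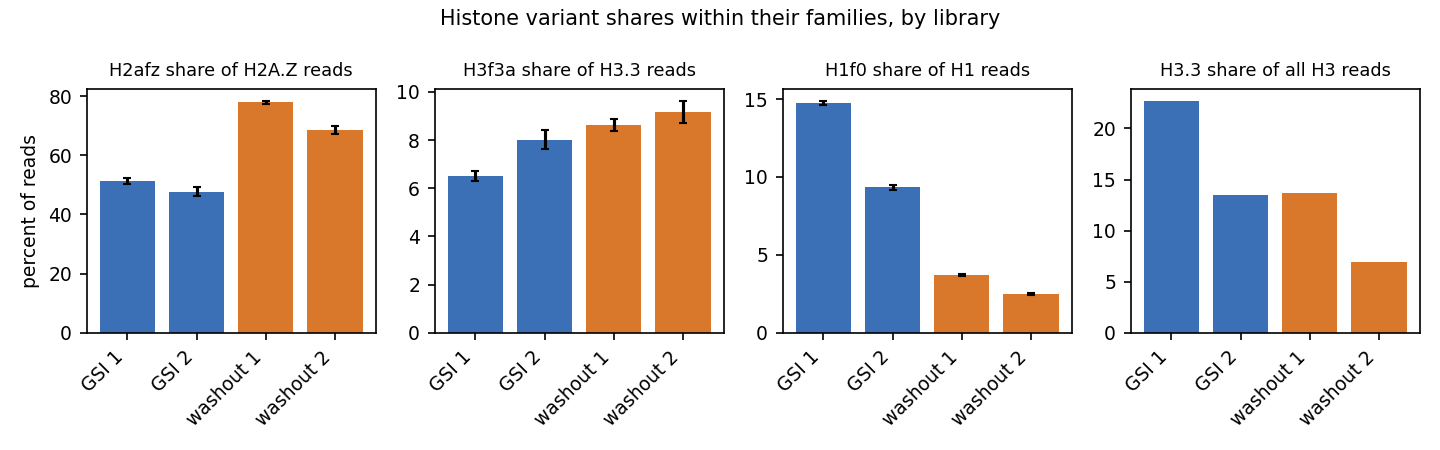
Percent of reads in each library (GSI blue, washout orange, linear axes from 0). The first 3 panels give H2afz among H2afz and H2afv, H3f3a among H3f3a and H3f3b, and H1f0 among H1f0 and Hist1h1a to Hist1h1e. The last panel gives H3f3a and H3f3b among these genes and the replication-dependent H3 genes, with 1 of a pair of same-count copies dropped. Error bars are 95% Wilson intervals (counting error only) and are not drawn in the last panel. The conditions separate in the first 3 panels, and the H3.3 share of washout replicate 1 (13.7%) and GSI replicate 2 (13.5%) nearly coincide.

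Beside the variants, nearly all of the histone genes taken by symbol as replication-dependent rose. This set includes Hist2h3c2 and Hist3h2bb-ps, which are annotated as pseudogenes and were both called higher. It also includes Hist4h4, which lies on chromosome 6 apart from the others. Of 63 genes tested, 58 rose and 1 fell, with a median log2 fold change of 0.85, and past both thresholds were Hist1h2bj (1.03) and Hist2h4 (1.03), the former named after its value was seen. Hist2h2be, with a log2 fold change of -0.72, fell. With scaling by the total count, 44 genes rose, with a median of 0.65. With the correction for GC content and length, 55 rose, with a median of 0.59. Without GSI replicate 1, 4 genes rose and 0 fell, with a median of 0.67, and Hist2h4 lost its call (0.78, adjusted p = 0.0948). Hist2h4 also missed the threshold with DESeq2 (adjusted p = 0.0545) and was at 0.61 without washout replicate 2. Near-identical copies share reads, and 4 pairs had counts within 4 of each other in every library. With 1 gene of each pair dropped, 59 genes remained, and the medians were 0.57 for H1, 0.84 for H2A, 0.85 for H2B, 0.83 for H3 and 0.90 for H4. In log2 fold change over all libraries, H2afz was above all of these genes, and H2afx and H2afj were slightly below the median. The H3.3 genes, H2afy, H2afv and H1f0 were below the H3, H2A and H1 medians. The order of the genes that rose depended on the library left out. Without washout replicate 1, H2afz was at 0.96, below the median of the 63 genes (1.09). Without washout replicate 2, H2afx (0.61) and H2afj (0.63) were above that median (0.58).

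Within the families, the summed CPM of the H2A variants was 1185 and 1217 in GSI and 1806 and 1977 in washout, a log2 ratio of means of 0.66 beside 0.82 for the replication-dependent H2A genes. The variants' share of the reads of these variants and replication-dependent H2A genes was 18.5% and 15.4% in GSI and 17.2% and 13.9% in washout. These shares overlapped (exact permutation p = 0.667). Left out of them were 1 copy of each same-count pair, and Hist3h2a and Hist1h2aa, which were listed with other variant histones. The H3.3 genes summed to 1864 and 1281 CPM in GSI and 1647 and 1142 CPM in washout, a log2 ratio of -0.17 beside 0.83 for the replication-dependent H3 genes. Their share of the reads of the H3.3 and replication-dependent H3 genes was 22.7% and 13.5% in GSI and 13.7% and 6.90% in washout. These values overlapped between conditions (exact permutation p = 0.667), and in each condition replicate 1 had the higher share. The family shares of the H2A variants, of H3.3 and of H1f0 are shares of counted reads and not of mRNA. They are not scaled to exon length, and reads shared by near-identical copies may be counted repeatedly.

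Of 10 other variant histones, most of them germ-cell specific, 6 passed the filter, 3 rose and 1 fell. The median log2 fold change was 0.60, and the highest value was that of Hist1h2ba (0.91), at 2525 to 8233 counts per library. Whether reads of near-identical H2B copies are among these counts was not tested. Cenpa, which encodes the centromeric H3 variant, rose by 0.34 (adjusted p = 0.026, edgeR), a call that was lost without GSI replicate 1 (adjusted p = 0.0749), GSI replicate 2 (0.163) or washout replicate 2 (0.0603) and with scaling by the total count (0.265). Hist1h1t, the testis linker histone, fell with a log2 fold change of -1.16 (adjusted p = 0.0353) at 8 to 44 counts per library, and lost the call when any 1 library was left out (adjusted p from 0.105 to 0.221).

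Factors that place H3.3 moved in both directions. Of 8 genes, 5 rose and 1 fell, with a median log2 fold change of 0.28. Hira, the core of the complex that deposits H3.3 in genes, rose by 0.64 (adjusted p = 0.00204), Asf1a, which hands H3.3 to it, by 0.86 (adjusted p = 0.00781) and Dek by 0.96 (adjusted p = 0.0112), or by 0.59 without washout replicate 1. Ubn2, another subunit of the Hira complex, fell with a log2 fold change of -0.70 (adjusted p = 0.00189), which was -0.29 (adjusted p = 0.0342) with the correction for GC content and length. Daxx and Atrx, which deposit H3.3 in heterochromatin, had 0.25 (adjusted p = 0.0488) and -0.38 (adjusted p = 0.0667), with edgeR as before. The call of Daxx was lost when any 1 library was left out (adjusted p from 0.0938 to 0.251), and its log2 fold change was 0.055 (adjusted p = 0.614) with scaling by the total count. Atrx fell without washout replicate 1 (-0.56, adjusted p = 0.00975) and with scaling by the total count (-0.58, adjusted p = 0.0173), but was at -0.20 without washout replicate 2 (adjusted p = 0.272) and at -0.049 with the correction for GC content and length (adjusted p = 0.612).

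Among 12 genes for the deposition and removal of H2A.Z, 7 rose and 0 fell, with a median of 0.38. The largest rises were those of the ATPases Ruvbl1 (1.37, adjusted p = 0.000421) and Ruvbl2 (1.35, adjusted p = 0.000374), which also belong to complexes without a role in H2A.Z exchange. Ruvbl2 was named after its value was seen. Anp32e, the chaperone that takes H2A.Z off chromatin, rose by 0.94 (adjusted p = 0.00345). The ATPases that put H2A.Z in place, Srcap (-0.01, adjusted p = 0.947) and Ep400 (-0.17, adjusted p = 0.191), and the H2A.Z-binding subunit Vps72 (0.04, adjusted p = 0.731) did not pass the test. For these 3 genes the sign changed with the processing.

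All 11 general and replication-coupled histone chaperones in the table rose, 7 of them past both thresholds, with a median of 1.12. They ranged from Nap1l4 (0.45, a call lost without GSI replicate 1, adjusted p = 0.139) to Npm1 (1.83), and included the replication-coupled chaperones Chaf1a (1.38, adjusted p = 0.00102) and Asf1b (0.97, adjusted p = 0.000789). Of 11 genes that process replication-dependent histone mRNA, 8 rose and 0 fell, with a median of 0.77. Slbp, which binds the stem-loop, rose by 1.03 (adjusted p = 0.0012). Npat, the activator of histone gene clusters, had 0.33 (adjusted p = 0.0559), with 0.48 without washout replicate 2 (adjusted p = 0.00827) and 0.19 without washout replicate 1 (adjusted p = 0.244). Zfp473, at -0.24, was the lowest.

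Of 10 genes that write, read or remove the phosphorylation of H2A.X or act downstream of it, 7 rose and 0 fell, with a median of 0.50 and values from Trp53bp1 (-0.13) to Baz1b (0.88). The kinase Atm rose by 0.57 (adjusted p = 0.00623) and the reader Mdc1 by 0.47 (adjusted p = 0.0212). Without GSI replicate 1, 3 genes rose and the calls of Atm (adjusted p = 0.0537) and Mdc1 (adjusted p = 0.141) were lost. These lists were chosen with earlier results of the data known, and their counts stand beside the 27% of all genes that rose.

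**Figure D4:**
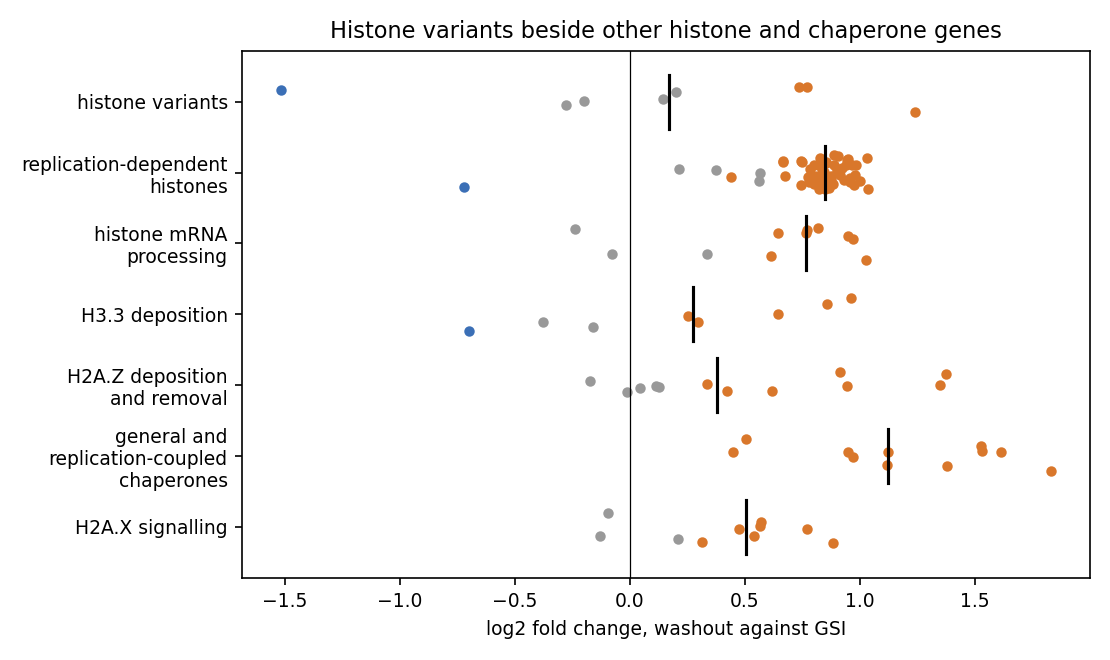
Change upon washout on the log2 scale for each tested gene of the histone variants and of 6 lists of other histone, chaperone and signalling genes (edgeR). Orange points rose, blue points fell, grey points did not pass an adjusted p of 0.05, and black bars mark the median. Most replication-dependent genes lie close to their median of 0.85, with a full range from -0.72 to 1.035. They include 4 pairs of copies with nearly the same counts, drawn as separate points. The variants extend from -1.52 to 1.24 around a median of 0.17.

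The test allows no finer statement on size. When a change beyond a log2 fold change of 1 was itself tested (glmTreat of edgeR), neither H1f0 (adjusted p = 0.0517) nor H2afz (adjusted p = 0.3) passed. The authors' aligner was limited to introns of at most 3000 bases. A longer annotated gap between exons is present in 4 variants (H2afy, H2afy2, H2afv and H3f3a), so that spliced reads across it could not be aligned as such. In H2afz and H3f3b the longest gap is 377 and 2400 bases. Levels and read shares that set H2afv beside H2afz, or H3f3a beside H3f3b, may be affected by this limit, which was not tested. H2afy, H2afy2, H3f3a and H1fx overlap a gene on the other strand, and the strand setting of the counting is not given in the sources used here. The counts of H2afy and H3f3a may thus include reads of a neighbor. H2afy2 and H1fx were listed at 0, so no reads of a neighbor are counted there.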

How the data were processed

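RNA-Seq covered 4 samples of Beko cells (GSI, n = 2, and washout, n = 2). After trimming by trimGalore, the authors mapped reads to the mm9 genome using HISAT2 2.2.1 and deposited raw counts per gene from summarizeOverlaps. Their methods give 1 alignment per read and introns of at most 3000 bases. The table holds no normalized values, and the strand setting and overlap mode are not given in the sources used here.

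Differences between conditions were tested on the counts by edgeR 4.0.16 under R 4.3.3 (filterByExpr, TMM factors of 0.930 to 1.08, quasi-likelihood test, Benjamini-Hochberg adjustment over 12266 genes). The test was checked on simulated counts for 12266 genes, of which 200 were changed by 1.5 on the log2 scale. Its calls held 182 of the changed genes and 30 false ones. In this simulation the false calls were thus a larger part of all calls than the threshold of 0.05 aims at. Calls with an adjusted p close to that threshold are therefore uncertain. How it performs with smaller changes, or with changes in as many genes as moved here, was not tested. Shares were compared by exact permutation. Alternatives were DESeq2 1.42.0, its size factors (RLE), total-count scaling, both filters, thinning to the smallest library, a replicate block, glmTreat, leaving out each library, and, added after the data were seen, a correction for GC content and length. Genes named outside the set were the highest and lowest of each list and a fixed choice of chaperones and histone genes. The members and lists were chosen with earlier results of these data known. Supt16h, listed among the chaperones, is not in the table used here.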

Additional observations from a re-analysis of the deposited data

How the results depend on the processing

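Over the 8 variants, the number that fell was 2 instead of 1 with total-count scaling, the replicate block, a filter of at least 10 counts in every library, thinning to the smallest library or the correction for GC content and length, H2afv being added each time. Leaving out each library gave 1 to 2 that fell and 0 to 1 past both thresholds and higher. Total-count scaling moved the median of all genes by -0.199 and that of the variants to -0.029, and lowered the share of higher genes among those past both thresholds from 39.8% to 23%, and among those at an adjusted p under 0.05 from 51.5% to 35.3%. With glmTreat against a log2 fold change of 1, 0 variants were called in either direction, and so were 0 replication-dependent, mRNA processing or H2A.X signalling genes, while 6 chaperones were called higher and 0 lower. The replicate block raised the calls over all genes from 6435 to 8459, with deviations of same-numbered libraries correlated at 0.497 over 2 pairs. The labels do not say what a number marks, and under the block H2afv (adjusted p = 0.00497) and H2afy (0.0489) passed.

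Leaving out each library gave 4 to 61 replication-dependent genes that rose and 0 to 1 that fell, 3 to 7 H2A.X signalling genes that rose (median 0.39 to 0.61) and 1 to 2 chaperones that fell (median 0.61 to 0.73). Chaperones that fell numbered 2 with DESeq2, without the filter and with the block, and 4 with total-count scaling. Their median was 0.45 with total-count scaling, 0.61 with thinning and 0.75 with the GC correction. Total-count scaling gave a median of 0.57 for mRNA processing and of 0.31 for H2A.X signalling, where 1 gene fell. Signs turned for H2afy (-0.002), H3f3a (-0.056) and Vps72 (-0.16) with total-count scaling, and for H3f3a (-0.032), Vps72 (-0.045), Ep400 (0.21) and Trp53bp1 (0.14) with the GC correction. Srcap was 0.004 with DESeq2 and 0.025 without the filter. Over the libraries left out, H3f3a ranged from -0.093 to 0.36, H3f3b from -0.49 to 0.10 and Srcap from -0.18 to 0.18. The cause was not tested for any of these. Of the other values, 195 counts, medians and share differences stayed within 1.5 times the main count or within the spread between replicates. Such counts could still change, and the variants that rose numbered 4 instead of 3 with the replicate block or the GC correction and 2 without GSI replicate 1. Of the gene values, 370 kept their direction and side of the threshold, 19 passed it and 50 lost it.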
